A study of Mus musculus with 8 samples.

Results

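MHC class I antigen presentation was followed through 10 genes of the 22274 in the count table, taken by symbol: the heavy chains H2-K1 and H2-D1, the light chain B2m, the peptide transporter genes Tap1 and Tap2, the loading factor Tapbp, the immunoproteasome subunits Psmb8, Psmb9 and Psmb10, and the regulator Nlrc5. All 10 were measured and passed the filter on low counts. RNA was sequenced from primary cardiac fibroblasts of the mouse, the matrix-producing cells of the heart, cultured with TGF-β, a cytokine that turns fibroblasts into myofibroblasts. There were 4 libraries labelled GFP, the vector control, and 4 labelled OEIRF7, for overexpression of the interferon regulatory factor IRF7, and the labels give the TGF-β treatment for all 8. The study's text gives 5 ng/ml for 24 h and an adenovirus carrying FLAG-tagged IRF7 or no insert, and its reagent list names a human IRF7 construct with EGFP driven by the CMV promoter, whereas the design text of the series names an adeno-associated virus. The labels give no strain, genotype or age of the animals, and name no animal or culture of a library. Biological replicates are counted as 3 in the study's text against 4 libraries here, so which libraries came from separate cultures is not known, and p-values measure the spread between these libraries, which may in part be technical. The comparison asks what raising IRF7 does to TGF-β-treated fibroblasts.

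Class I molecules display peptides of the cell's own proteins to CD8 T cells. Proteasomes cut proteins into peptides, TAP carries the peptides into the endoplasmic reticulum, tapasin holds the empty class I molecule at TAP, and the heavy chain leaves for the cell surface once it is bound to β2-microglobulin and a peptide. Interferon raises most of these genes, partly through NLRC5, a coactivator that sits on class I promoters together with the RFX factors, and fibroblasts like nearly all nucleated cells have a basal level of the pathway.

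Total counts lay between 24454801 and 28658826 per library. Mouse Irf7 itself was lower under the overexpression label: it was at 107, 147, 92.0 and 126 CPM (counts scaled to the library's total) in the GFP libraries and at 14.9, 14.5, 14.9 and 16.4 CPM in the OEIRF7 libraries, a log2 fold change of -2.96 (SE 0.12, adjusted p = 7.72e-11, edgeR's quasi-likelihood test with Benjamini-Hochberg adjustment over all tested genes, used throughout). Mouse counts therefore go against the label, a transcript of a human construct was not looked for here, and directions below compare the libraries as labelled. The fibroblast marker Col1a1 was at 4561 ± 140 CPM in GFP and 4070 ± 187 CPM in OEIRF7 (SD, n = 4 each here and below). Of 9 fibroblast markers 5 were lower in OEIRF7 and 1 higher, against 29.9% lower and 29% higher among all tested genes. Tcf21 was among the lower ones (58.3 ± 6.13 and 23.1 ± 3.49 CPM). Markers of other cells were present: over all libraries macrophage and dendritic cell markers summed to 308 to 428 CPM, endothelial markers to 222 to 256 CPM and mural cell markers to 105 to 133 CPM, while cardiomyocyte markers summed to at most 13.7 CPM. Libraries of one group differed by more than sampling noise in every pair (chi-square per degree of freedom 2.69 to 8.67).

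The stretches around the gene starts are shown for the genes that carry the result: the 3 genes of the class I molecule, the 2 immunoproteasome genes that rose, and the divergent start shared by Tap1 and Psmb9, which did not pass the test. Each is the RefSeq window (GRCm38.p6) from 250 bases before to 50 bases after the start, 5′ to 3′ on the gene's strand. Capitals mark matches on either strand to any of 4 motifs: the core of the interferon-stimulated response element GAAANNGAA, the gamma-activated site TTCNNNGAA, the Y box ATTGG, and the NF-kB consensus.

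H2-K1 (chr17:34000298-34000597, - strand): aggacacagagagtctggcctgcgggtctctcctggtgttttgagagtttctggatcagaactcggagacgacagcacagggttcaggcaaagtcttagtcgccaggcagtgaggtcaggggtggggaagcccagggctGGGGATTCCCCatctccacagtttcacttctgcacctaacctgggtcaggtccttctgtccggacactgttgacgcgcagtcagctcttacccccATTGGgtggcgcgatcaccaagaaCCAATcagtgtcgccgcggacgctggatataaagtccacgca
H2-D1 (chr17:35262844-35263143, + strand): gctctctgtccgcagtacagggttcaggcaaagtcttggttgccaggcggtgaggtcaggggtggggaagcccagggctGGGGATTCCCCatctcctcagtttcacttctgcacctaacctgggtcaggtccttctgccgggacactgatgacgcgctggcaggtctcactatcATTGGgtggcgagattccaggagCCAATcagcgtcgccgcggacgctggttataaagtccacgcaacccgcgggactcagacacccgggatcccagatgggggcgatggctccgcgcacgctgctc
B2m (chr2:122147437-122147736, + strand): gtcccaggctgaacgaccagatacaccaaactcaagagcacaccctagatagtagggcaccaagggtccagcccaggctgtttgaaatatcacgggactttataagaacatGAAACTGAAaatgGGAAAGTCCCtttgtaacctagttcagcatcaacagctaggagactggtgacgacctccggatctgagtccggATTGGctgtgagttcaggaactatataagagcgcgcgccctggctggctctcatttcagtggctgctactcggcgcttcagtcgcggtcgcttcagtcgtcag
Psmb9 (chr17:34187281-34187580, - strand): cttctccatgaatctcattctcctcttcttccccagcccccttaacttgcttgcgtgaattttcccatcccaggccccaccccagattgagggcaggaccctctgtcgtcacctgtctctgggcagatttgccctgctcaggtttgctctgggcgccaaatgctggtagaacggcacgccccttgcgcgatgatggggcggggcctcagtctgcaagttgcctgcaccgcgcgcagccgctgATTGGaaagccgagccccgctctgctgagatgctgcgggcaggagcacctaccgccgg
Psmb8 (chr17:34197945-34198244, + strand): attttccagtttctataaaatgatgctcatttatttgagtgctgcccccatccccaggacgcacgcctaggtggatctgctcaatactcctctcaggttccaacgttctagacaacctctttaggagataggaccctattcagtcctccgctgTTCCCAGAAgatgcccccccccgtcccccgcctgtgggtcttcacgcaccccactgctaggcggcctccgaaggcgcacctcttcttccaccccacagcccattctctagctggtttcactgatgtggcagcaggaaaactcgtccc
Psmb10 (chr8:105938343-105938642, - strand): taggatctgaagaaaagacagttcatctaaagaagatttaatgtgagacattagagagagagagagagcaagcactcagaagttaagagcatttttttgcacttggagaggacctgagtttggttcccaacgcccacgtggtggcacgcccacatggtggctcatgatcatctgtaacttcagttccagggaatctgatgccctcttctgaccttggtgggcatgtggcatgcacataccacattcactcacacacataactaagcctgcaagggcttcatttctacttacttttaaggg

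Windows were found for 8 of the 10 genes, all but Tap2 and Nlrc5. The Y box, bound by NF-Y, was in 6 of the 8, against 37.4% of all 32817 windows. The NF-kB consensus was in 3, those of H2-K1, H2-D1 and B2m, against 8.46% of all windows, and a Y box together with an NF-kB match was in the same 3, against 2.85%. In H2-K1 the NF-kB letters begin 111 bases before the start, as overlapping matches of both strands, and in H2-D1 they begin 171 bases before it, each followed by a pair of Y boxes facing each other. Of the 8 genes B2m alone held the exact letters of the interferon element core, 139 bases before its start. That is 1 of the 8, against 8.55% of all windows. Divergent forms of the core were not searched, so the other windows may hold interferon elements that are not marked. Psmb8 held a gamma-activated site 97 bases before its start, also 1 of the 8, against 8.29% of all windows. Psmb10 held none of the 4 motifs. Outside the 10 genes, a Y box and an NF-kB match were also together in the windows of other class I heavy chains. These were H2-Q4, H2-Q6 and H2-Q7, which rose, and H2-T22, which was not called. H2-T22 and H2-T23, also not called, held an interferon element core, and H2-T23 a Y box without an NF-kB match. The Psmb9 window overlaps that of Tap1 by 275 bases on the opposite strand, and the Y box at chr17:34187334-34187338 is the same for both genes. A match describes letters only, not a bound site.

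Of the 10 genes, 8 were higher in the libraries labelled OEIRF7 and 0 were lower, against 29% higher and 29.9% lower among the 13533 genes tested. Tap1 and Psmb9 did not pass the test. The median log2 fold change of the 10 was 0.30, against 0.00153 over all tested genes. The changes were modest: 3 genes passed a 1.5-fold limit, Psmb10, Psmb8 and H2-K1, against 9.26% of all tested genes called higher past it, and Nlrc5 fell just short. In 7 of the 10 every OEIRF7 library lay above every GFP library. Of all 13533 tested genes 3623 lay wholly above in this way and 3659 wholly below, 53.8% counting both directions. In bulk RNA, more cells that express a gene and more RNA per cell cannot be told apart.

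**Figure D1:**
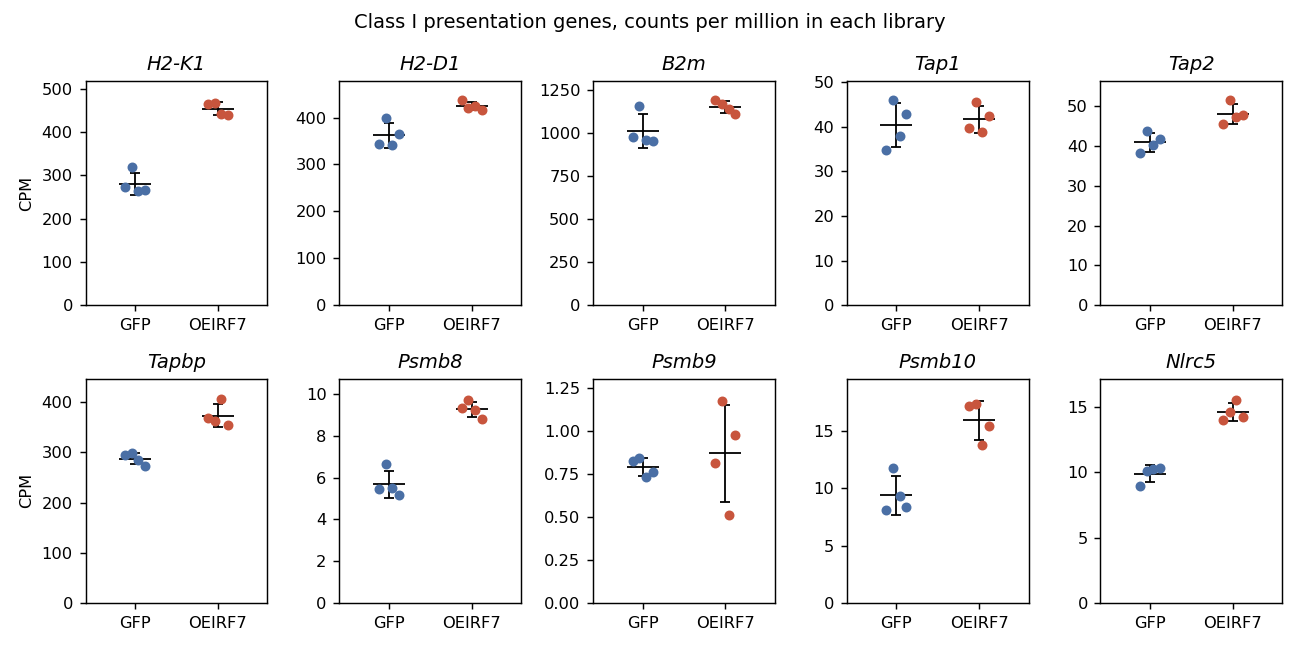
CPM of the 10 class I presentation genes in each library (points), with the mean and SD of the 4 libraries of each group (bars). The groups are apart in 7 panels, meet at 1 GFP library in B2m, and overlap in Tap1 and Psmb9.

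H2-K1, the classical heavy chain with the largest change, was at 273, 319, 265 and 267 CPM in the GFP libraries and at 466, 468, 442 and 440.4 CPM in the OEIRF7 libraries. The lowest OEIRF7 library lay well above the highest GFP library, which was replicate 2. The log2 fold change was 0.69 (SE 0.052, adjusted p = 3.69e-08, edgeR), or 1.62-fold.

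H2-D1, the other classical heavy chain, was at 345, 399, 341 and 365 CPM in GFP and at 437, 420.4, 426 and 416 CPM in OEIRF7. The groups did not overlap, although GFP replicate 2 came near the OEIRF7 libraries. The log2 fold change was 0.23 (SE 0.045, adjusted p = 0.000446, edgeR). The 95% intervals of the log2 fold change, 0.58 to 0.80 for H2-K1 and 0.13 to 0.32 for H2-D1, do not meet, and the difference itself was not tested.

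B2m encodes β2-microglobulin, the light chain common to all class I molecules. It was at 972, 1156, 955 and 953 CPM in GFP and at 1189.5, 1164, 1140.2 and 1110.4 CPM in OEIRF7. Replicate 2 of GFP lay within the OEIRF7 range and the other 3 GFP libraries lay below it. The log2 fold change was 0.19 (SE 0.052, adjusted p = 0.00597, edgeR), while permuting the libraries' log2 CPM exactly, two-sided, gave p = 0.086, where 4 against 4 libraries can reach 0.029 at the lowest. Without GFP replicate 2 the log2 fold change was the highest of those with 1 library left out, 0.26, and the call held without each library in turn (largest adjusted p = 0.025).

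Levels of different genes were compared per length, in FPKM. In the GFP libraries B2m was the most abundant (median 1109.9 FPKM), followed by H2-D1 (174 FPKM) and H2-K1 (169.7 FPKM), whose ranges overlapped. In the OEIRF7 libraries H2-K1 (median 292 FPKM) lay above H2-D1 (212.5 FPKM) with no overlap. The ratio of H2-K1 to H2-D1 in FPKM, which cancels library scaling, was 1.01, 1.01, 0.986 and 0.933 in GFP and 1.35, 1.42, 1.33 and 1.35 in OEIRF7. B2m stood at 3.27, 3.34, 3.28 and 3.16 times the sum of both heavy chains in GFP and at 2.69, 2.67, 2.69 and 2.64 times in OEIRF7. The light chain thus rose less than the heavy chains together in all 4 OEIRF7 libraries. These ratios were chosen after values were seen and are given without a test.

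**Figure D2:**
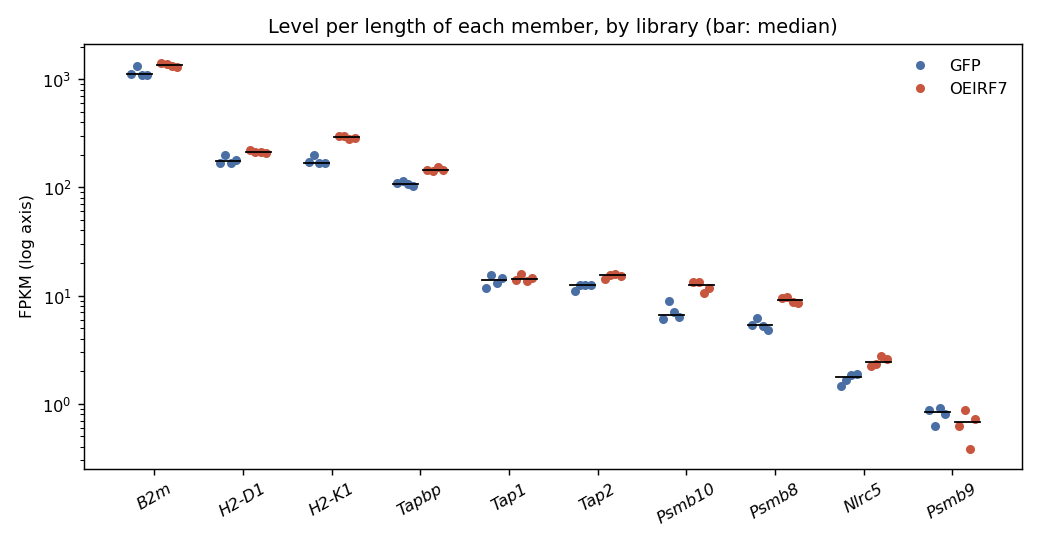
FPKM of each gene in each library on a log axis, ordered by the median of the GFP libraries (bars are group medians). B2m lies highest and Psmb9 lowest in both groups, and H2-K1 moves from the level of H2-D1 to above it.

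Counting may divide reads between near-identical heavy chains. Of the 50-base windows of the longest coding transcript (GENCODE M21), 8.79% of H2-K1 and 14.3% of H2-D1 occur in transcripts of other genes, and 24.3% of H2-Q4, 32.0% of H2-Q6 and 34.9% of H2-Q7. In the T region the share was 44.7% for H2-T22, mostly with H2-T10, and 28.8% for H2-T23. For B2m, Psmb8, Psmb9, Psmb10 and Nlrc5 the share was 0%. Annotated genes on the opposite strand nevertheless overlap B2m (Patl2), Psmb8 and Tap2 (Gm20496), Psmb10 (Gm16156) and Nlrc5 (9330175E14Rik). The strand setting of the counting is not given in the sources used here, so reads of these overlaps cannot be assigned. How reads that fit several genes were counted is not given in the sources used here, so folds of the heavy chains are uncertain. This holds above all for the Q and T region genes with a high share.

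Tap1 and Tap2 encode the partner chains of the peptide transporter. Tap1 was at 34.9, 46.0, 38.0 and 42.8 CPM in GFP and at 39.7, 45.7, 38.8 and 42.5 CPM in OEIRF7. The groups lay over each other, with a log2 fold change of 0.05 (SE 0.078, adjusted p = 0.64, edgeR) and a 95% interval of -0.12 to 0.21. Tap2 was at 38.2, 43.7, 40.1 and 41.6 CPM in GFP and at 45.4, 51.4, 47.2 and 47.7 CPM in OEIRF7. Each OEIRF7 library lay above all GFP libraries for Tap2, with a log2 fold change of 0.23 (SE 0.052, adjusted p = 0.0015, edgeR). Per length the partners were close in the GFP libraries (median 13.8 FPKM for Tap1 and 12.4 FPKM for Tap2, overlapping) and in the OEIRF7 libraries as well (14.3 and 15.4 FPKM, overlapping). The interval of Tap1 and that of Tap2, 0.12 to 0.34, overlap, and the difference between them was not tested.

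Tapbp encodes tapasin, which bridges TAP and the class I molecule and edits its peptide. It was at 295, 298, 285 and 273 CPM in GFP and at 368, 362, 407 and 355 CPM in OEIRF7. The groups were well apart, with a log2 fold change of 0.38 (SE 0.044, adjusted p = 3.77e-06, edgeR). Tapbp (median 109 FPKM in GFP) lay above either TAP gene per length in every library. Of genes that overlap it, Zbtb22 on the same strand had a log2 fold change of -0.11 (adjusted p = 0.23, edgeR).

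The immunoproteasome genes Psmb8, Psmb9 and Psmb10 encode catalytic subunits that take the places of Psmb5, Psmb6 and Psmb7 in the 20S core after interferon. Psmb8 was at 5.45, 6.65, 5.51 and 5.19 CPM in GFP and at 9.34, 9.72, 9.23 and 8.84 CPM in OEIRF7. Every OEIRF7 library lay above every GFP library, and the log2 fold change was 0.71 (SE 0.095, adjusted p = 1.51e-05, edgeR).

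Psmb10 was at 8.06, 11.8, 9.28 and 8.35 CPM in GFP and at 17.2, 17.3, 13.7 and 15.4 CPM in OEIRF7. The groups did not overlap despite a wide spread in both, and its log2 fold change of 0.77 (SE 0.11, adjusted p = 3.6e-05, edgeR) was the highest of the 10 genes.

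Psmb9 rested on few reads, 22, 21, 18 and 20 counts in GFP and 21, 34, 13 and 24 counts in OEIRF7. The OEIRF7 libraries spread below and above all GFP libraries, and a change was not detectable at this depth (log2 fold change 0.14, SE 0.28, adjusted p = 0.68, edgeR, 95% interval -0.45 to 0.74). Its direction depended on the unit: the mean was 0.789 CPM in GFP and 0.867 CPM in OEIRF7, but 0.802 FPKM and 0.655 FPKM. Psmb9 overlaps the start of Tap1 on the opposite strand, and the strand setting of the counting is not given in the sources used here, so reads of the shared stretch cannot be assigned to either gene.

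The constitutive subunits rose too, each with no overlap between groups: Psmb6 by a log2 fold change of 0.31 (59.1 ± 2.04 to 73.4 ± 1.65 CPM), Psmb7 by 0.29 (94.9 ± 3.80 to 116 ± 1.28 CPM) and Psmb5 by 0.17 (67.6 ± 2.89 to 75.9 ± 5.34 CPM). Per length, Psmb8 came to 7.35%, 7.92%, 6.95% and 6.79% of Psmb5 in the GFP libraries and to 10.3%, 12.03%, 10.05% and 10.7% in the OEIRF7 libraries. The log2 ratio was higher by 0.57 (-3.79 ± 0.099 to -3.22 ± 0.11), with an exact two-sided permutation p = 0.029, the smallest that 4 against 4 can give, so Psmb8 rose beyond its constitutive partner. Psmb10 came to 7.85%, 10.4%, 8.66% and 7.89% of Psmb7 in GFP and to 12.96%, 13.2%, 10.5% and 11.96% in OEIRF7. Here the groups barely parted, with a log2 difference of 0.48 and an exact permutation p = 0.029, which became p = 0.057 with a pseudocount of 1 FPKM and when any library other than GFP replicate 2 was left out. Psmb9 came to 0.808% to 1.25% of Psmb6 in GFP and to 0.416% to 0.939% in OEIRF7, with overlapping groups (log2 difference -0.68, exact permutation p = 0.057). With a pseudocount of 1 FPKM this difference was -0.47 (exact permutation p = 0.029), while the ratio of counts gave -0.24 (exact permutation p = 0.49). Adjusted by Benjamini-Hochberg over the 3 ratios, the exact permutation p were 0.043 for Psmb8 and Psmb10 and 0.057 for Psmb9. Of the 50-base windows of Psmb5, 57.1% occur in other transcripts, mostly of the gene Gm3375, which makes its level uncertain.

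**Figure D3:**
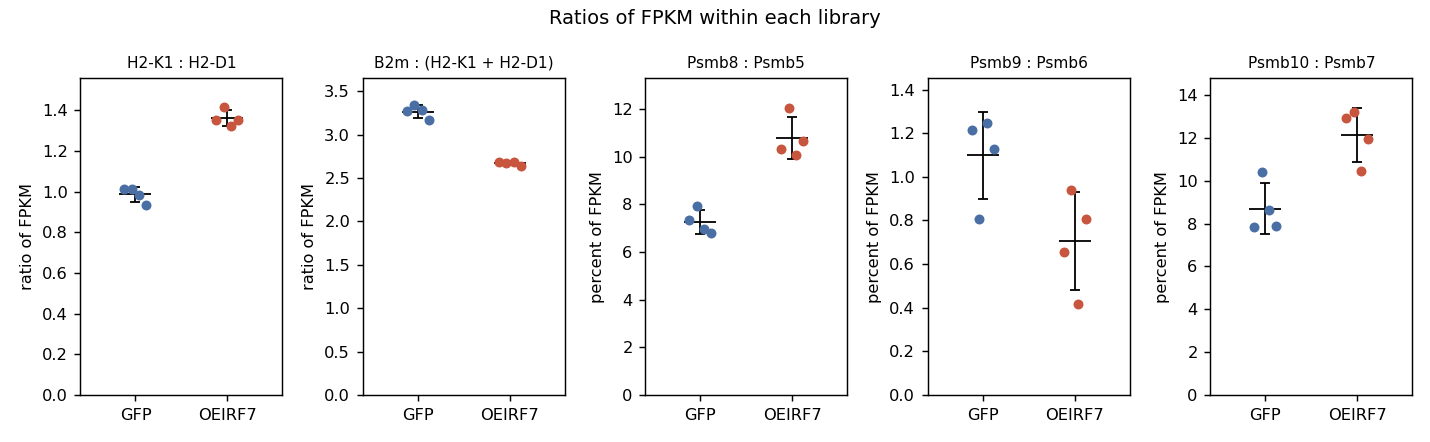
Ratios of FPKM within each library (points, with mean and SD of 4 libraries): H2-K1 to H2-D1, B2m to both heavy chains, and each immunoproteasome subunit as a percent of its constitutive partner. The heavy chain and Psmb8 ratios are apart between groups, Psmb10 is apart by a small margin and Psmb9 overlaps.

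Nlrc5, the coactivator of class I genes, was at 8.96, 10.06, 10.2 and 10.3 CPM in GFP and at 13.99, 14.6, 15.5 and 14.2 CPM in OEIRF7. The groups were apart, with a log2 fold change of 0.56 (SE 0.073, adjusted p = 1.05e-05, edgeR), or 1.48-fold. At a median of 1.75 FPKM in GFP and 2.46 FPKM in OEIRF7 it lay near the bottom of the 10 genes per length, above Psmb9 alone. Its class II counterpart Ciita had 1 to 7 counts per library and was not tested.

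**Figure D4:**
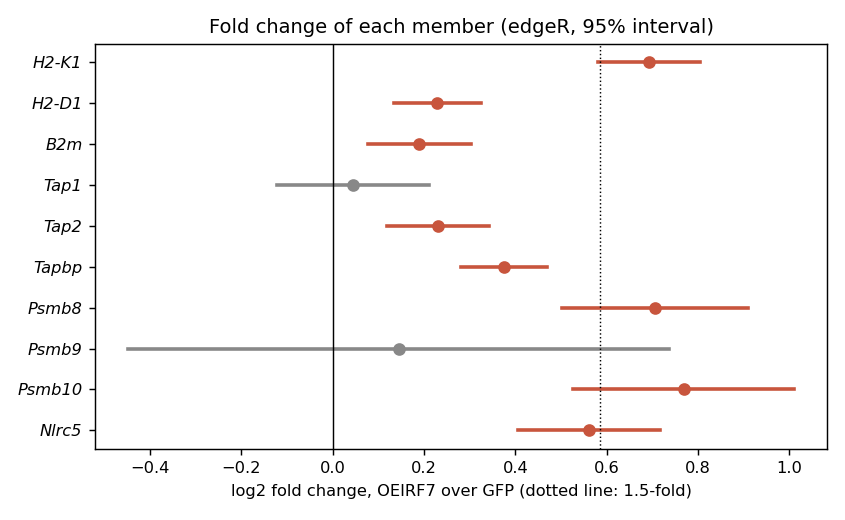
Log2 fold change of OEIRF7 over GFP for each gene with its 95% interval (edgeR), red where called higher and grey where not called, with a dotted line at 1.5-fold. Psmb10, Psmb8 and H2-K1 lie past the line, Nlrc5 just short of it, and the intervals of Tap1 and Psmb9 include 0.

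Genes around these steps were described by 9 further lists, in which 50 of 99 tested genes (50.5%) were higher and 9 (9.09%) lower, against the 29% and 29.9% of all tested genes. The lists, like the 10 genes, were written with earlier results of these data in view.

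The largest changes of the whole pathway were among the other class I heavy chains. Of 14 tested genes there 5 rose and 1 fell, against 29% higher and 29.9% lower among all tested genes. H2-Q4, a heavy chain of the Q region, was at 35.7, 46.2, 34.6 and 36.8 CPM in GFP and at 106, 112, 99.4 and 99.0 CPM in OEIRF7. Its groups were far apart, with a log2 fold change of 1.44 (SE 0.075, adjusted p = 6.82e-10, edgeR). H2-Q6 lay between 2.15 and 5.01 CPM in GFP and between 14.2 and 18.3 CPM in OEIRF7 and rose by a log2 fold change of 2.27. H2-Q7 rose by 1.52, and H2-Q5, with 2 to 15 counts in GFP, by 2.16. Mr1, which presents microbial metabolites, rose by 0.11 (adjusted p = 0.048), a call lost in 10 of 17 alternatives. Fcgrt, the neonatal Fc receptor chain that also pairs with β2-microglobulin, fell by 0.23 on the log2 scale. The median over the 14 was 0.20. Of 4 heavy chains of the T region tested none was called: H2-T24 had a log2 fold change of 0.29 (adjusted p = 0.075), H2-T23 of 0.08 (adjusted p = 0.22), H2-T22 of -0.08 (adjusted p = 0.12) and H2-T10 of -0.32 (adjusted p = 0.19). The shared windows given above make the values of H2-T22, H2-T10 and H2-T23 uncertain as well.

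Among 9 peptide loading partners 4 rose and 1 fell. Hspa5, the chaperone BiP, rose by a log2 fold change of 0.63, Tapbpl, the tapasin-related editor TAPBPR, by 0.41, Prkcsh by 0.25 and Calr, the calreticulin that holds class I molecules in the loading complex, by 0.09. Ganab, the catalytic subunit of glucosidase II whose partner Prkcsh rose, had a log2 fold change of -0.79 and fell, with 264 ± 4.15 CPM in GFP and 152 ± 7.62 CPM in OEIRF7. The list's median was 0.05.

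Of 9 peptide trimming enzymes 8 rose and none fell, with a median of 0.19. The largest were the cytosolic peptidases Blmh (0.54), Thop1 (0.36) and Prep (0.33), and Erap1, which trims peptides inside the endoplasmic reticulum, rose by a log2 fold change of 0.19 (71.1 ± 3.77 to 81.1 ± 3.55 CPM) in counts, but lost its call in the 3 alternatives on FPKM (21.7 ± 1.36 and 22.5 ± 6.77 FPKM). Tpp2 and Npepps, counted among the 8, each lost their call in 4 alternatives.

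Proteasome genes showed small changes or none that passed the test. Of the 11 subunits common to both kinds of 20S core 7 rose, none fell and 4 were not called, with Psmb2 the largest at a log2 fold change of 0.42 and a list median of 0.13. Of 18 subunits of the 19S particle, which unfolds ubiquitinated proteins, 9 rose, 8 were not called and 1 fell, Psmd2 (-0.09), a call lost in 9 of 17 alternatives. Their median was 0.09, with Psmd7 the largest at 0.36. Of 10 activators and assembly factors 3 rose, a share near the 29% of all tested genes, 6 were not called and 1 fell, Psme4 (-0.12), a call lost in 3 alternatives. Psme1 and Psme2, the interferon-inducible PA28 activator, had log2 fold changes of -0.03 (adjusted p = 0.66) and 0.04 (adjusted p = 0.59).

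Of 16 tested factors that bind class I promoters 4 were higher and 5 lower, shares near the 29% and 29.9% of all tested genes. Their median was -0.04. Irf1, an interferon-induced activator of Tap1 and Psmb9, was at 14.1, 18.1, 15.4 and 18.1 CPM in GFP and at 24.03, 26.0, 23.05 and 22.1 CPM in OEIRF7. Its groups were apart, with a log2 fold change of 0.54 (SE 0.084, adjusted p = 6.56e-05, edgeR). Rela and Nfkb1, the NF-kB subunits, rose by 0.36 and 0.28. The Y box and X box factors Nfyb, Creb1 and Rfxap fell by 0.25, 0.26 and 0.26 on the log2 scale, although Creb1 turned to 0.0848 on log2(FPKM + 1) and Nfyb and Rfxap each lost their call in 3 alternatives. The X box factors Rfx5, Rfxank and Atf1 were not called, with log2 fold changes of -0.19 (adjusted p = 0.071), 0.15 (adjusted p = 0.15) and 0.12 (adjusted p = 0.057).

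Of 9 genes of the interferon receptor chain 7 rose and none fell, with a median of 0.20. Socs3, a feedback inhibitor of JAK kinases, rose by a log2 fold change of 1.03, Ifngr2, a chain of the interferon gamma receptor, by 0.62 (72.4 ± 0.893 to 111 ± 4.02 CPM) and the kinase Jak2 by 0.39.

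**Figure D5:**
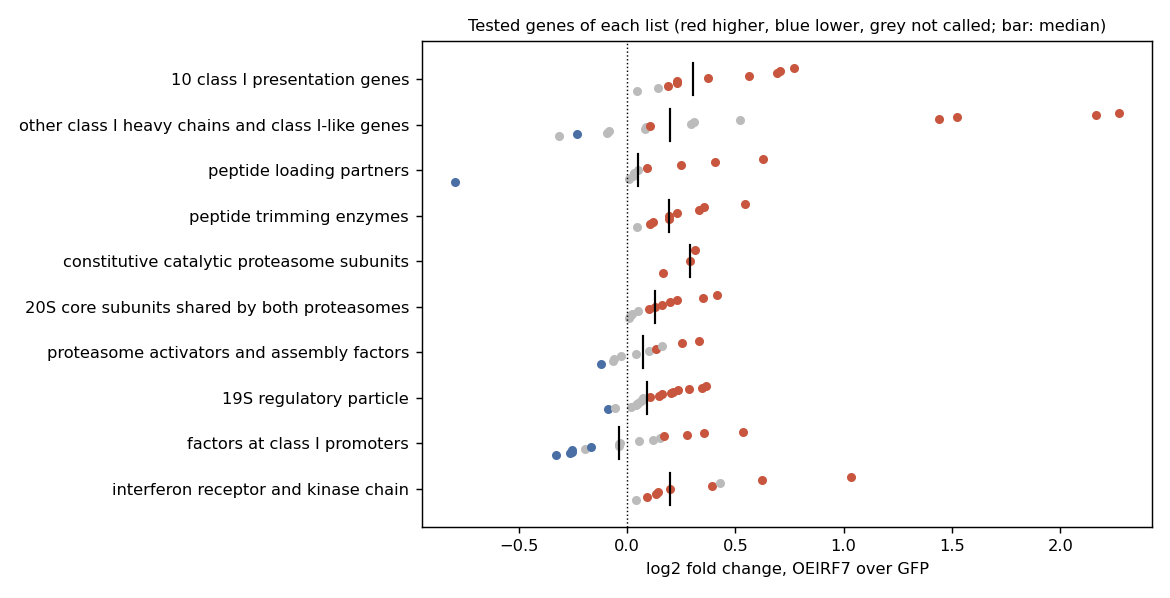
Log2 fold changes of the tested genes of each list (points, red called higher, blue called lower, grey not called), with the list's median as a bar. H2-Q genes reach the largest values, Ganab is the lowest point, and the promoter factors lie on both sides of 0.

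Leukocytes carry much class I RNA, so their markers are given beside these counts. Of 12 macrophage and dendritic cell markers 11 were tested and 5 rose, against 29% of all tested genes: Itgam by a log2 fold change of 1.07, Itgax by 0.62, Adgre1 by 0.44, Lyz2 by 0.22 and Cd68 by 0.21. Cd68 lost its call in 4 alternatives and Adgre1 in 3. Their summed level was 308 to 366 CPM in the GFP libraries and 379 to 428 CPM in the OEIRF7 libraries, without overlap. The pan-leukocyte gene Ptprc had a log2 fold change of -0.08 (5.27 and 4.96 CPM, adjusted p = 0.64), Csf1r of 0.06 (adjusted p = 0.54) and C1qb of -0.32 (adjusted p = 0.064), and Flt3 had no count in any library. The part of these cells in the rise of the class I genes was not tested. The 10 T, B and NK cell markers summed to at most 0.896 CPM, with Cd3e, Cd3d, Cd8a, Nkg7 and Ncr1 at 0 counts in all libraries.

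Replicate 2 of GFP had the highest CPM of its group for 9 of the 10 genes, with a median log2 deviation from the group mean of 0.17. The same library had the highest Irf7 (147 CPM) of the GFP group. Replicate 2 of OEIRF7 was highest for 6 of the 10, with a median deviation of 0.06. Without GFP replicate 2 the log2 fold changes of the 8 genes called higher ranged from 0.26 to 0.90, and each kept its call.

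By position, 7 of the 10 genes lie on chromosome 17, between 33915899 and 35267499 of GRCm38, the H2 complex, while Psmb10 and Nlrc5 lie on chromosome 8 and B2m on chromosome 2. Of 53 other tested genes in that interval 15 (28.3%) were higher and 12 (22.6%) lower, with a median log2 fold change of 0.04. Over all tested genes these shares were 29% and 29.9%.

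Genes most like 3 of the 10 in their course over the 8 libraries were named by the root mean square difference of centred log2 CPM. Nearest to H2-K1 were Mfap5 (0.0501), Rhoc (0.0562) and Ctsk (0.0602). For Psmb8 they were P2ry2 (0.0539), Mfap5 (0.0629) and Ctsk (0.0639), so 2 of the 3 were common to both. The measure includes the difference between groups, and these genes had log2 fold changes near those of H2-K1 (0.69) and Psmb8 (0.71). They were 0.72 for Mfap5, 0.68 for Rhoc, 0.64 for Ctsk and 0.70 for P2ry2. Genes with equal folds can therefore share neighbours by this measure alone. Nearest to Tap1 were Zfp120 (0.0541), Gbp7 (0.0565) and Trit1 (0.0588).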

How the data were processed

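RNA-seq of 8 libraries of mouse primary cardiac fibroblasts was analysed, 4 labelled GFP and 4 labelled OEIRF7. The authors trimmed reads with Trimmomatic, mapped them to GRCm38 with HISAT2 and deposited unnormalized HTSeq-count counts per gene, and FPKM from Cufflinks, which are normalized for length and depth. Versions and the strand setting are not given in the sources used here, and labels and methods name different kits. The authors' comparison columns (group means, log2 fold change, p-value and FDR) were not used. The letters nc had been replaced by GFP in 121 symbols, which were restored by identifier (GENCODE M21). The study's text names 3 biological replicates, and all 4 libraries per group were used.

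Counts were tested in R 4.3.3 with edgeR 4.0.16 (filterByExpr, TMM, glmQLFit and glmQLFTest, no covariate, Benjamini-Hochberg over 13533 genes, called at 0.05) in place of DESeq, after the scripts were tested on simulated data. CPM use TMM-scaled totals (factors 0.989 to 1.01), and log2 CPM a prior count of 2. Depth was 24454801 to 28658826 counts, and genes under 1 CPM rest on few reads. The genes named are all 10 class I genes, Irf7, 11 fixed genes, of which 1 is not reported here, and, per list, at most 6 called genes with the largest change. C1qb, Csf1r, Ptprc, Rfxank, Atf1, Psmd2, Tpp2, Npepps, the T region genes, Zbtb22 and the ratios of H2-K1, H2-D1 and B2m were chosen after their values were seen. Nfyb, Cd74 and H2-Aa also lie outside that rule. The 10 genes and the lists were chosen with earlier results of these data known. Alternatives were DESeq2 1.42.0, limma 3.58.1 on log2(FPKM + 1) and log2(FPKM + 0.1) above a mean of 0.1 FPKM or unfiltered, other scalings and count filters, a replicate block and leaving out each library.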

Additional observations from a re-analysis of the deposited data

Results flagged for a closer look

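In groups of 4 libraries, the gap of the highest or lowest library to its nearest neighbour was divided by the whole range. The values were log2 CPM of the genes named by rule and the FPKM ratios given above. This quotient passed Dixon's 95% critical value in 7 of 180 groups examined (3.89%), where chance gives about 1 in 20. In the GFP group, replicate 2 stood high for H2-K1 (0.839), B2m (0.894) and Psme2 (0.866), and replicate 1 stood low for Nlrc5 (0.833) and Psma5 (0.844). In the OEIRF7 group, replicate 1 stood high for Psma5 (0.842) and replicate 2 for Jak2 (0.832). The calls of H2-K1, B2m and Nlrc5 held with that library left out.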

How the results depend on the processing

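Each of the 10 genes kept its side of the threshold in all 17 alternatives, 170 values in all. The log2 fold changes ranged from 0.67 to 0.76 for H2-K1, 0.20 to 0.28 for H2-D1, 0.16 to 0.26 for B2m and 0.36 to 0.59 for Nlrc5, which passed 1.5-fold without scaling (0.59). Uncalled Tap1 ranged from -0.02 to 0.11 and Psmb9 from -0.29 to 0.33. The list genes called lower, 9, became 4 under limma on log2(FPKM + 1), 4 on log2(FPKM + 0.1) and 3 without a filter, where the number tested and the unit both change. Creb1 turned to 0.0848, 0.0945 and 0.0848 (adjusted p = 0.36, 0.36 and 0.43) in these, and the cause was not tested. Of all list genes, 18 lost their call in at least 1 alternative: Mr1 in 10, Psmd2 and Cdh5 in 9, Ifnar2 in 8, Jak1, Nfya, Psmb4 and Lum in 7, Tpp2, Npepps, Irf2 and Cd68 in 4, Erap1, Nfyb, Rfxap, Psme4 and Adgre1 in 3 and Psma4 in 1. Genes called higher past 1.5-fold, 1253, became 765 with log2(FPKM + 1) and 762 unfiltered, where the pseudocount shrinks the folds of low genes.

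Log2 ratios of FPKM + 1 were -0.47 for Psmb9 to Psmb6 (exact permutation p = 0.029) and 0.41 for Psmb10 to Psmb7 (p = 0.057). Leaving out 1 library gave 0.44 to 0.55 for Psmb10 to Psmb7 (exact permutation p = 0.057) except without GFP replicate 2 (0.57, p = 0.029), and 0.52 to 0.61 for Psmb8 to Psmb5 (p = 0.029). With same-numbered libraries as a replicate block, exact sign flips of 4 differences cannot go below p = 0.125, the value for Psmb8 to Psmb5 (0.57) and Psmb10 to Psmb7 (0.48). Same-numbered libraries correlated at 0.0792 to 0.138 in their deviations, each best with its own number, a hint from the data only, since no label pairs them. The replicate block gave 4057 genes higher and 4154 lower and moved no call of the 10 genes. Depth limits Psmb9, H2-Q5 and Ciita.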

Other observations

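Further lists of the cell types that the cultures could hold are given as values only, against 29% higher and 29.9% lower among all tested genes. Of 10 class II genes 4 were tested and H2-Ab1 rose by a log2 fold change of 0.77 at low level (1.75 ± 0.143 to 2.98 ± 0.687 CPM), while Cd74 and H2-Aa averaged below 1 CPM in both groups (Cd74 0.107 and 0.372 CPM) and were not tested. Of 8 endothelial markers 4 rose (Kdr by 0.79) and Cdh5 fell by 0.11 on the log2 scale, a call lost in 9 of 17 alternatives, with summed levels of 222 to 234 CPM in GFP and 226 to 256 CPM in OEIRF7. Of 5 tested mural cell markers 2 rose (Cspg4 from 22.4 ± 1.84 to 63.3 ± 7.18 CPM) and 2 fell (Notch3 by 1.61 on the log2 scale). Of 9 fibroblast markers 1 rose, Pdgfra by 0.25, and 5 fell, among them Tcf21 by 1.33 and Postn by 0.38 on the log2 scale. The only cardiomyocyte marker tested, Tnnt2, fell by 0.54 on the log2 scale.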
